A study of Mus musculus with 8 samples.

Results

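RNA recovered with AGO2 was compared between mouse mesangial cells lacking miR-379 (miR-379KO MMC) and wild-type mesangial cells (WT MMC). The members are the 4 AGO2-IP libraries of the 8 libraries in the series, WT A, WT B, miR-379KO A and miR-379KO B, chosen by their labels. All were made from untreated primary MMC of C57BL/6J mice; the miR-379KO mice carry a homozygous deletion at miR-379 made with CRISPR-Cas9 nickase, and the WT mice carry no deletion. Per the study's methods the cells were grown out of sieved glomeruli that were pooled, and how many animals a culture came from is not given in the sources used here. The study calls A and B independent samples, but the labels do not say whether they are separate cultures, so p-values measure the spread between these libraries, which may be technical. The other 4 libraries, total RNA of the same genotypes with 2 replicates each, were used here to sort genes by whether a poly(A) transcript was seen and to set total RNA values beside AGO2-IP values.

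AGO2 is the Argonaute protein at the core of the RNA-induced silencing complex. It holds a mature microRNA and uses bases 2 to 8 of it, the seed, to find matching sites, mostly in 3′-UTRs, where translation is repressed and the mRNA destabilized. Immunoprecipitation of AGO2 after UV cross-linking (AGO2-IP) therefore recovers microRNAs, their targets and whatever else stays on the beads. miR-379 is the first microRNA of a large cluster in the imprinted Dlk1-Meg3 region, and mesangial cells are the contractile, matrix-producing pericytes of the glomerulus. The comparison asks which transcripts are recovered with AGO2 to a different extent when miR-379 is missing.

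The sequences the comparison turns on are those of the lost microRNA and of its closest relatives in the cluster, as given by RefSeq for GRCm38.p6 on chromosome 12, with bases 2 to 8 in capitals. The deletion is at Mir379. Of 1679 mature mouse entries, 2 shared the seed GGUAGAC, miR-379-5p and miR-1193-5p, and miR-411-3p had the same seed as miR-379-3p.

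mmu-miR-379-5p: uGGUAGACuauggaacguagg

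mmu-miR-379-3p: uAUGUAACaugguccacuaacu

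mmu-miR-411-5p: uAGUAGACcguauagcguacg

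mmu-miR-411-3p: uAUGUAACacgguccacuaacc

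mmu-miR-1193-5p: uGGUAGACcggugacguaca

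Among the 8 transcripts the study named as candidate targets, 4 had at least a 6-base match to the seed of miR-379-5p in the annotated 3′-UTR. These are shown because the later results refer back to them, with the matched bases in capitals. The site of Edem3 (chr1:151821005-151821032, plus strand) and that of Fis1 (chr5:136966108-136966135, plus strand) pair with bases 2 to 8. The site of Vegfb (chr19:6982548-6982575, minus strand) pairs with bases 2 to 7 followed by an A, and that of Txn1 (chr4:57943763-57943790, minus strand) with bases 2 to 7. No 6-base match was found in the 3′-UTRs used for Slc20a1, Hnrnpc, Clta and Ap3s1.

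Edem3: gagtttagaaacatctgGTCTACCtcag

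Fis1: tctcctgcacccctgtaGTCTACCtcta

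Vegfb: tatgaaaaccccaaactTCTACCAataa

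Txn1: tgacaataaaatattaatTCTACCcttt

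The libraries differed in depth and make-up before any gene was compared. The ribosomal RNA precursor Rn45s and Lars2 were left out of every total, and 1874974 and 1605578 counts remained for WT A and B against 1308026 and 1115665 for miR-379KO A and B. A count is 1 read assigned to a gene, and paired values are those of A and B in that order. Reads assigned to no gene on the counted strand made up 46.6% and 49.7% of uniquely placed reads for WT, against 73.4% and 76.4% for miR-379KO. The counts do not give where these reads lie, so they need not lie between genes. Replicates did not agree within sampling noise, with a chi-square per degree of freedom of 7.09 in WT and 3.41 in miR-379KO. Mir379 itself had 0 and 4 counts for WT against 1 and 0 for miR-379KO, too few to check the genotype. The cell type was checked on total RNA. Of 10 mesangial and pericyte markers 6 were expressed, including Acta2, Tagln, Vim and Pdgfrb, while Itga8, Gata3, Pdgfra and Thy1 had a mean of 56.0 counts or fewer. The podocyte genes Synpo, Wt1 and Podxl were also expressed, but the slit diaphragm gene Nphs1 had a mean of 2.25 counts. No endothelial or leukocyte marker of the 5 each examined was expressed, and of 5 tubule markers 1 was, the endocytic receptor gene Lrp2, with 24 to 472 counts.

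Genes were divided by their total RNA. A gene was called expressed at a mean of 100 or more counts over the 4 total RNA libraries, which applied to 9904 of 24617 genes. Another 7748 genes had 0 counts in each of these libraries and are called genes with no total RNA, and the 6965 in between had low total RNA. Camk4 and 6330408A02Rik, at a mean of 100 counts, stood just inside the limit, with AGO2-IP log2 fold changes of 1.58 and 0.33. Mars2 and Taf4b, at 99.8, stood just outside, with 0.48 and 1.07.

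Genes with no total RNA took a larger share of AGO2-IP counts in miR-379KO MMC. They held 0.860% of counts in WT A and 0.675% in WT B (95% Wilson intervals 0.847 to 0.873% and 0.663 to 0.688%). For miR-379KO the shares were 2.71% in A and 3.62% in B (2.68 to 2.73% and 3.58 to 3.65%). Both miR-379KO libraries lay above both WT libraries, and the means, 0.768% ± 0.131 and 3.16% ± 0.643 (SD, n = 2 each), differed 4.12-fold. An exact two-sided permutation test of 2 libraries against 2 cannot give less than p = 0.333, the value found here, so no single share can pass a threshold. The intervals cover counting error only. The mean level was higher in miR-379KO for 6275 of these 7748 genes, lower for 454, and 1019 had no AGO2-IP count at all.

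The larger share was seen across kinds of genes that share no function. Olfactory and vomeronasal receptor genes, the chemosensory receptors of the nose, went from 0.114% ± 0.00158 to 0.557% ± 0.0969 over 1416 genes, a ratio of 4.88. Long non-coding RNA genes went from 0.111% ± 0.0170 to 0.464% ± 0.0989 over 1118 genes (ratio 4.19), and the other 3793 protein-coding genes from 0.548% and 0.410% to 1.70% and 2.29% (ratio 4.17). MicroRNA precursor genes had a lower ratio, 2.18 over 970 genes. Small structured RNAs and histone genes, whose transcripts lack poly(A) tails, showed no such difference. The 33 small structured RNA genes held 0.0240% and 0.0156% for WT against 0.0157% and 0.0117% for miR-379KO, so the genotypes overlapped. The 15 histone genes held 0.00336% and 0.00424% for WT against 0.00206% and 0.00305% for miR-379KO, which did not overlap but rested on 27 to 68 counts per library.

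**Figure D1:**
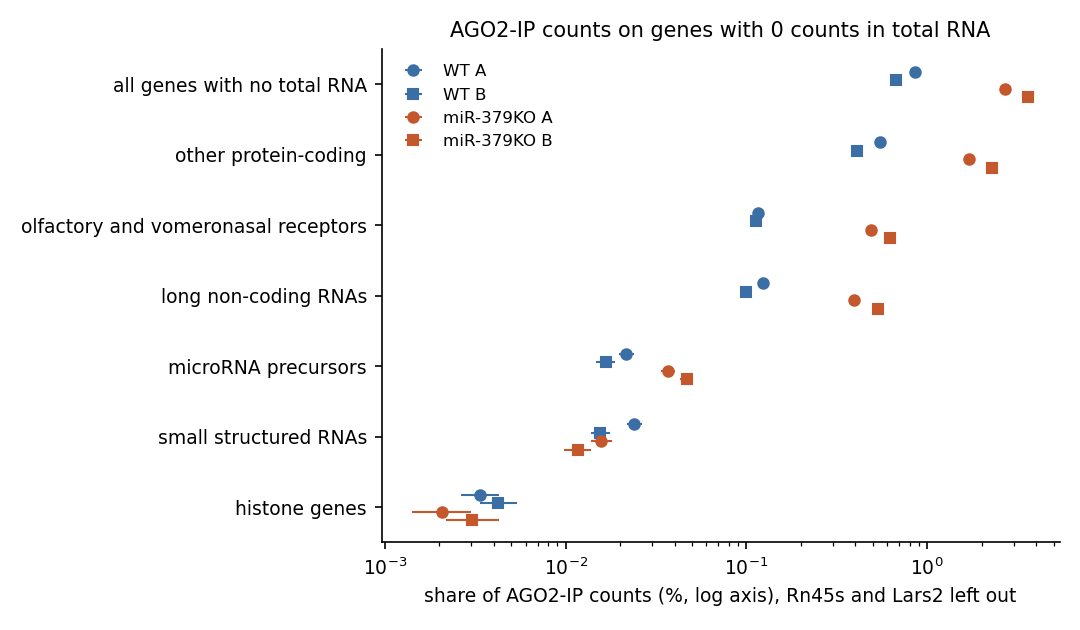
Share of AGO2-IP counts (percent, log axis) on genes with 0 counts in every total RNA library, for all of them and by kind of gene. Each point is 1 library with its 95% Wilson interval, WT in blue and miR-379KO in orange; both miR-379KO points lie to the right of both WT points except for small structured RNAs and histone genes.

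The same signal can be written as a rate per length. Over the exons of 4801 autosomal protein-coding genes with no total RNA, WT A had 1.40 and WT B 0.945 counts per kb, and miR-379KO A and B had 3.19 and 3.63. Of these genes 77.1% and 64.3% had at least 1 count for WT, against 88.5% and 90.5% for miR-379KO. Such a rate is of little weight beside an abundant transcript and of much beside a scarce one. Among expressed genes with 3000 or more total RNA counts, it would account for a median of 1.40% and 0.934% of AGO2-IP counts for WT against 4.86% and 7.35% for miR-379KO. Among those with 100 to 300 counts, it would account for 18.3% and 15.8% for WT against 48.0% and 54.8% for miR-379KO.

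Single genes with no total RNA were called mostly upward. Only 938 of the 7748 passed the filter on low counts, and a gene of this class passes mainly where its counts are high, so the 830 called higher and 4 called lower are given as counts alone. Over all 13445 genes tested, 29.2% were called at an adjusted p under 0.05, 20.7% higher and 8.44% lower. Trdn, which encodes triadin of the muscle calcium release complex, had 11 and 9 counts for WT against 62 and 61 for miR-379KO. Ppfia2, a synaptic scaffold gene, had 9 and 12 counts against 53 and 56. Cps1, the first enzyme of the urea cycle in liver, had 16 and 10 against 53 and 57. Lrp1b, a giant receptor gene of the LDL receptor family, had 49 and 37 against 148 and 170. In each of these genes both miR-379KO libraries were above both WT libraries, as they were in Slc4a10, Skint6, Cntn4, Usp9y and Skint5, which are also among the 10 largest rises. Absence of overlap was a condition for naming these genes. Genotypes without overlap were found in 67.1% of all genes tested.

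Against this background 3 genes with no total RNA and a mean of at least 30 counts fell, all from transcripts without a poly(A) tail. Rnu11, the U11 small nuclear RNA of the minor spliceosome (chromosome 4, 132270079 to 132270186), had 79 and 44 counts for WT against 25 and 11 for miR-379KO (log2 fold change −1.54 ± 0.35 SE, adjusted p = 0.00351). Hist1h4f, a histone H4 gene, had 43 and 50 against 16 and 22 (−1.07 ± 0.34, adjusted p = 0.0211). Scarna10, a Cajal body guide RNA, had 290 and 167 against 153 and 81 (−0.74 ± 0.27, adjusted p = 0.0456). With TMM factors taken from expressed genes, Rnu11 still passed (adjusted p = 0.00994), whereas Hist1h4f (0.0789) and Scarna10 (0.158) did not, and without miR-379KO B Rnu11 too no longer passed (−1.13, adjusted p = 0.0646).

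Summed counts of leukocyte, endothelial and tubule markers were also higher in miR-379KO, and those of podocyte markers were not. The 5 leukocyte markers together held 52 and 41 counts for WT against 93 and 116 for miR-379KO, the 5 endothelial markers 42 and 20 against 57 and 64, and the 5 tubule markers 59 and 63 against 148 and 169. Ptprc (CD45) had 14 and 8 counts against 36 and 59, with 3 to 7 counts in the total RNA libraries. The 5 podocyte markers together held 717 and 210 counts against 484 and 232, so the genotypes overlapped, and within that list Nphs1, the nephrin gene, had 3 and 2 against 21 and 11. Lrp2, the expressed tubule marker, had 43 and 48 counts against 92 and 117 (1.42 ± 0.26, adjusted p = 0.000901).

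Expressed genes were then read apart from the rest. Of 9904 expressed genes 9650 were tested, and 295 (3.06%) rose and 1120 (11.6%) fell in miR-379KO AGO2-IP. The median log2 fold change was −0.23 (quartiles −0.52 and 0.11) under TMM factors computed over all tested genes. The share of falls depended on that scaling. With TMM factors computed from expressed genes, the median was 0.00 and 610 genes (6.32%) rose and 374 (3.88%) fell. Rises thus went from 20.8% to 62.0% of the calls. The counts also rested on single libraries: without miR-379KO B, 82 genes rose and 138 fell, and without WT B, 176 rose and 764 fell. Of 147 genes followed through these fits 125 were called, and of these 65 no longer passed without miR-379KO B and 44 without WT B. Log2 fold changes given from here on use the factors over all tested genes unless another scaling is named, and are to be read against the median of −0.23.

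The AGO2-IP change followed how abundant a gene was. Genes with 100 to 300 total RNA counts had a median log2 fold change of 0.17, and 191 of 2097 rose and 33 fell. Those with 300 to 1000 counts had a median of −0.15 (0.08 with factors from expressed genes), and those with 1000 to 3000 a median of −0.37. Genes with 3000 or more had a median of −0.56, and 1 of 1081 rose and 411 fell. In total RNA the medians of the same groups lay between −0.06 and 0.07. When the counts that the rate in genes with no total RNA gives over the same exon length were subtracted in each library, and the median expressed gene was set to 0, the 4 medians lay between −0.07 and 0.02. This subtraction was chosen after the data were seen and carries no test.

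The change also followed base composition, and there the subtraction left it as it was. In the 2409 genes with the lowest exon GC content (34.6 to 45.4%), the median was 0.11, with 197 rises and 51 falls. In the 2409 with the highest (54.9 to 70.9%), it was −0.49, with 7 rises and 552 falls. With factors from expressed genes these medians were 0.34 and −0.26, and after the subtraction 0.38 and −0.29. With an offset fitted to GC content and exon length over the tested genes the order turned, to −0.51 and −0.17. Genes both low in total RNA and low in GC had a median of 0.26 (2416 genes), and genes high in both one of −0.55 (2419 genes). The Spearman correlation across genes, which are not independent replicates, was −0.49 with the total RNA count, −0.49 with GC content and 0.28 with the share of exon bases that the genome sequence masks as repeats. Whether base composition, repeats or fragment length caused part of the change was not tested.

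**Figure D2:**
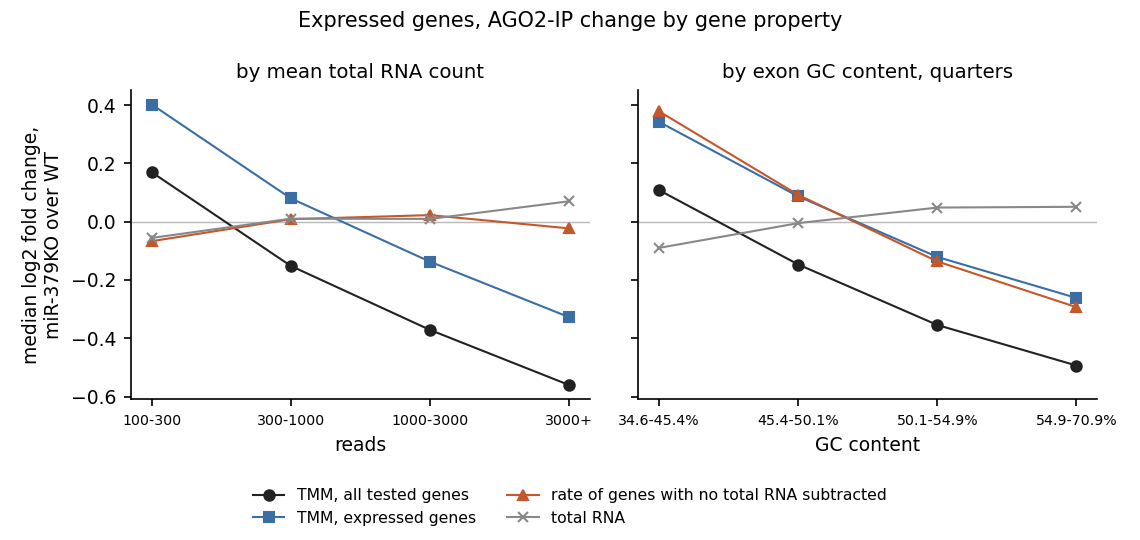
Median log2 fold change (miR-379KO over WT) of expressed genes grouped by mean total RNA count (left) and by exon GC content (right), for AGO2-IP under 2 scalings and after subtraction, and for total RNA. AGO2-IP medians fall from the scarcest to the most abundant genes except after subtraction, and fall with GC content under all 3.

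Actg2, smooth muscle gamma-actin (chromosome 6, 83512909 to 83536251), had 590 and 638 counts for WT A and B against 68 and 43 for miR-379KO A and B. Its level went from 406 ± 70.4 to 42.0 ± 10.8 CPM (counts scaled to a common library total with the TMM factors), 9.60-fold lower (log2 fold change −3.26 ± 0.28, adjusted p = 1.13e-06). Actg2 was also lower in total RNA, with 11747 and 10559 counts against 3321 and 5399, but did not pass there (−1.47 ± 0.41). The test of the difference between the assays gave −2.05 ± 0.49 with an unadjusted p of 0.000483 and an adjusted p of 0.211.

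Mgp, matrix Gla protein, an inhibitor of calcification, had 302 and 408 counts for WT against 70 and 60 for miR-379KO (−2.25 ± 0.26, adjusted p = 8.61e-05). Its total RNA changed by −0.23 ± 0.42. Cx3cl1, the chemokine fractalkine, had 188 and 121 counts against 45 and 31 (−1.79 ± 0.25, adjusted p = 0.000203). For these genes the miR-379KO libraries were close together and well below both WT libraries. Igfbp2, an IGF binding protein, had 1199 and 1213 counts against 481 and 163 (−1.72 ± 0.37, adjusted p = 0.00484), and its miR-379KO replicates were further apart than its WT replicates. DESeq2 did not call it (adjusted p = 0.0889).

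Itga5, the alpha chain of the fibronectin receptor, had 3946 and 3975 counts for WT against 1375 and 1151 for miR-379KO (−1.44 ± 0.29, adjusted p = 0.00182). Agrn, the basement membrane proteoglycan agrin, had 1427 and 788 against 459 and 236 (−1.44 ± 0.30, adjusted p = 0.00243). Plac8, Serpinf1 (the secreted serpin PEDF), Slc6a9 (a glycine transporter) and Cnn1 (calponin of the contractile apparatus) were also among the 12 largest falls, with log2 fold changes between −1.76 and −1.56. Exon GC content lay between 46.2 and 61.9% in the 12 genes, with a median of 56.9% against 50.1% over all expressed genes tested.

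The 3 largest rises were of genes in which masked repeats made up most exon bases. A630089N07Rik, an uncharacterized transcript, had 152 and 169 counts for WT against 491 and 597 for miR-379KO (log2 fold change 1.98 ± 0.26, adjusted p = 0.000186). Cmah, which is needed to make the sialic acid Neu5Gc, had 131 and 173 against 513 and 521 (1.97 ± 0.26, adjusted p = 0.000194). Mrgpra6, a Mas-related G-protein coupled receptor gene (chromosome 7, 47185717 to 47189416), had 14115 and 12110 counts against 40067 and 43093 (1.89 ± 0.36, adjusted p = 0.00122). It was among the 6 expressed genes with the highest AGO2-IP level although its total RNA counts were only 627 to 935. Masked repeats made up 83.9%, 60.3% and 73.9% of the exon bases of these genes, against a median of 7.98% over all expressed genes tested.

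The other 9 of the 12 largest rises were Zfp277, Cubn, Cenpc1, Grk4, Gm19757, Camk4, Tyms, Gm10845 and Fut8, at 1.88 to 1.47. Tyms, the thymidylate synthase of DNA synthesis, had 1124 and 598 counts against 1956 and 2342, and Cenpc1, a centromere protein gene, 598 and 378 against 1231 and 1545. The rate of genes with no total RNA would give 13.8 counts on Tyms and 12.9 on Cenpc1 in miR-379KO B. It would give 41.1 of the 107 counts of Cubn there. Over the 12 rises the masked share ran from 1.83 to 83.9% with a median of 33.8%, the median exon GC content was 42.8%, and the mean total RNA counts lay between 100 and 774. With the offset for GC content and exon length, Gm19757 no longer passed (adjusted p = 0.316).

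**Figure D3:**
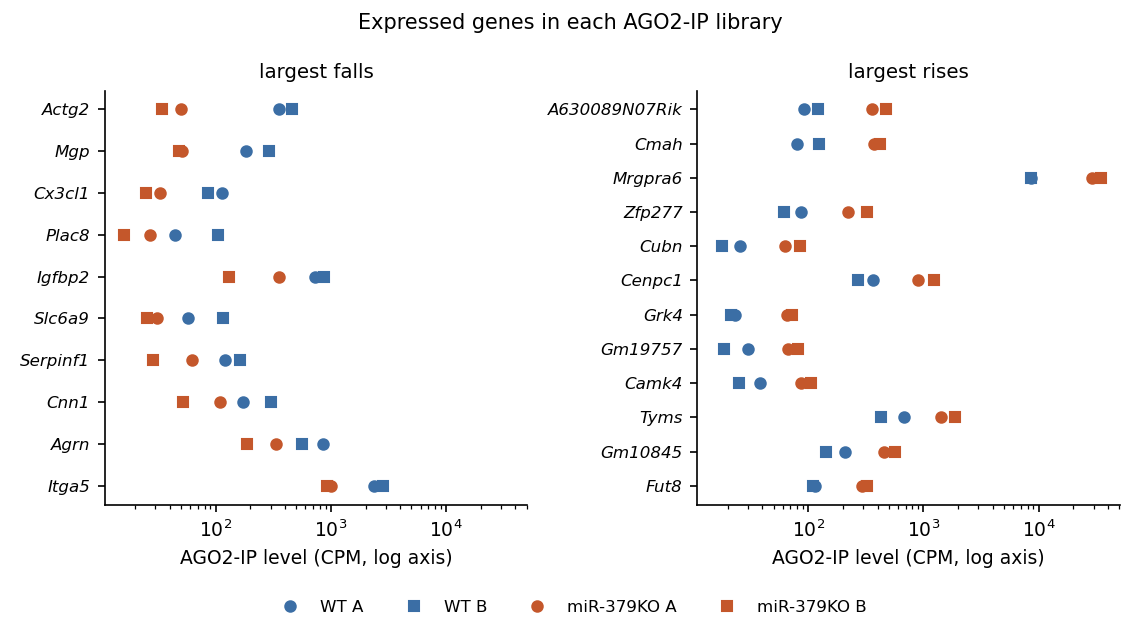
AGO2-IP level (CPM, log axis) in each library of 10 of the 12 expressed genes that fell most (left) and the 12 that rose most (right), with WT in blue and miR-379KO in orange. Within each gene the 2 genotypes do not overlap, which was a condition for choosing the genes and held for 67.1% of all genes tested.

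Some calls held under 12 of the settings compared. These were 6 scalings (TMM over all tested genes, TMM from expressed genes, RLE, an offset for exon GC content and length, Rn45s and Lars2 kept in the totals, and a fit on expressed genes alone), DESeq2, the replicate letter as a block, and the omission of each library. Under all 12 settings 29 expressed genes rose and 55 fell. The 55 included Actg2, Mgp, Cx3cl1, Tgfb1, the urokinase gene Plau, the basement membrane gene Nid2, the pericyte proteoglycan gene Cspg4, the glucose transporter gene Slc2a1 and the ribosomal protein gene Rps13. The 29 rises had a median GC content of 44.4% and a median total RNA count of 211, and the 55 falls medians of 55.6% and 2228. In total RNA 0 of these genes passed, but neither did any of the 12316 genes tested there, so this does not set them apart.

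Most matrix genes fell. Of the 32 expressed collagen and matrix genes tested, 20 fell and 1 rose, with a median log2 fold change of −0.89 against −0.23 for all expressed genes. Here and in the lists below, the shares to compare are 11.6% falling and 3.06% rising among all expressed genes. For counts with factors from expressed genes, the shares to compare are 3.88% falling and 6.32% rising. Of those with 3000 or more total RNA counts 411 of 1081 fell, and the median count of the matrix list was 11037. Whether abundance had a part in the falls of these lists was not tested. The most abundant matrix gene was Fn1, fibronectin, with 97469 and 70352 counts for WT against 34991 and 26298 for miR-379KO (−1.23 ± 0.38, adjusted p = 0.0191). Col1a1, the alpha-1 chain of type I collagen, had 34778 and 41962 against 16586 and 11958 (−1.23 ± 0.36, adjusted p = 0.0156), and Col4a1, of the basement membrane, 21885 and 15612 against 9925 and 6291 (−0.99 ± 0.34, adjusted p = 0.0349). Fn1 passed with factors from expressed genes (adjusted p = 0.0323), as did Col1a1 (0.0264), but Col4a1 did not (0.0706). None of the 3 passed in every fit that left out a library. The 1 expressed matrix gene that rose, decorin (Dcn), had 18 and 8 counts against 29 and 27. Dcn did not pass with the GC and length offset (adjusted p = 0.110) or with DESeq2 (0.170). Lama4 (2.15, adjusted p = 0.00134) and Thbs2 (1.29, adjusted p = 0.0354), matrix genes with low total RNA, also rose. Of all tested genes with low total RNA 58.1% were called higher. With factors from expressed genes 10 of the 32 fell and 2 rose, and the median was −0.66. After the subtraction it was −0.30, and in total RNA −0.23.

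Of 16 expressed proteases and inhibitors 8 fell and 0 rose (median −0.83), against 11.6% falling and 3.06% rising among all expressed genes. Among the 8 was Plau, with 160 and 118 counts against 58 and 34 (−1.37 ± 0.25, adjusted p = 0.000938). Serpinh1, the collagen chaperone HSP47, had 2872 and 3953 against 1717 and 1050, and the membrane metalloprotease Mmp14 had 1707 and 1811 against 869 and 579. The 4 genes of this list that rose, Mmp3, Mmp10, Mmp13 and Serpinb2, all had low total RNA and at most 10 counts in either WT library. Of all tested genes with low total RNA 58.1% were called higher, and with the GC and length offset Mmp13 (adjusted p = 0.307) and Serpinb2 (0.460) did not pass. Plau differed from its total RNA change, which was 0.50 ± 0.23, by −2.14 ± 0.39 (unadjusted p = 2.78e-05, adjusted p = 0.182).

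More contractile genes of the smooth muscle program fell than did not. Of 19 expressed genes 11 fell and 0 rose, with a median of −0.83, and with factors from expressed genes 6 fell, with a median of −0.60. Among all expressed genes 11.6% fell (3.88% with factors from expressed genes), and among those with 3000 or more total RNA counts 411 of 1081 did. The median total RNA count of the contractile list was 19996. Besides Actg2 and Cnn1, smoothelin (Smtn) had 859 and 583 counts against 350 and 188 (−1.20 ± 0.27, adjusted p = 0.00342), and tropomyosin 1 (Tpm1) 3071 and 3103 against 1531 and 1102 (−1.02 ± 0.29, adjusted p = 0.0130). Acta2, smooth muscle alpha-actin, had 5550 and 5722 against 4088 and 2184 and did not pass (−0.65 ± 0.33, adjusted p = 0.137), though it did with the GC and length offset (−0.98, adjusted p = 0.0353). Des, desmin, had 136 and 756 counts for WT against 65 and 37 for miR-379KO and did not pass, with the WT replicates far apart (log2 fold change −3.00 ± 1.37). Its log2 fold change was −3.88 without WT A and −1.14 without WT B. In total RNA the list had a median of 0.15.

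TGF-beta signalling genes, which drive matrix synthesis in mesangial cells, fell in part. Of 16 tested 6 fell and 0 rose, with a median of −0.68, against 11.6% falling and 3.06% rising among all expressed genes. Tgfb1, the ligand (chromosome 7, 25687002 to 25705077), had 278 and 272 counts for WT against 118 and 86 for miR-379KO (−1.22 ± 0.23, adjusted p = 0.00103). Tgfb3, Ltbp3 (a latent TGF-beta binding protein), the transducer Smad3, the inhibitor Smad7 and the repressor Ski also fell. The receptors Tgfbr1 (−0.45 ± 0.22) and Tgfbr2 (−0.41 ± 0.22) and the ligand Tgfb2 (−0.36 ± 0.22) did not pass, though Tgfbr1 did with the GC and length offset (−1.16, adjusted p = 0.00194). With factors from expressed genes 3 of the 16 fell, and after the subtraction the median was −0.21, beside −0.19 in total RNA.

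Secreted factors were more mixed. Of 21 expressed genes 6 fell and 1 rose (median −0.46), against 11.6% falling and 3.06% rising among all expressed genes. Beside Cx3cl1 and Igfbp2, the macrophage growth factor Csf1 had 570 and 1103 counts against 341 and 285, the EGF receptor ligand Hbegf 268 and 429 against 149 and 112, and Vegfa 376 and 540 against 195 and 223. The gene that rose was Ereg, another EGF receptor ligand, with 24 and 29 counts against 43 and 43 (0.91 ± 0.31, adjusted p = 0.0314). With the GC and length offset its change was −0.03.

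Genes of the endoplasmic reticulum and of glycolysis also lay below the median. Beside them, 11.6% of all expressed genes fell and 3.06% rose. Of 25 ER stress and chaperone genes 14 fell and 0 rose (median −0.68), among them Hyou1, an ER chaperone, with 519 and 566 counts against 258 and 168 (−1.15 ± 0.25, adjusted p = 0.00283). The list also held falls of the stress transcription factor Ddit3 (CHOP) and of Calr (calreticulin). Of 15 glycolysis genes 9 fell and 0 rose (median −0.76), among them Slc2a1 (GLUT1), with 198 and 180 counts against 83 and 53, and Gapdh, with 1193 and 1299 against 638 and 536. In each list 6 fell with factors from expressed genes.

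Immediate early genes had AGO2-IP and total RNA medians of opposite sign. Of 21 tested 6 fell and 0 rose in AGO2-IP, with a median of −0.49, whereas their total RNA median was 0.75. In total RNA 0 of them passed, as was so for all 12316 genes tested there. Egr1, an early growth response transcription factor, had 261 and 167 AGO2-IP counts against 79 and 77 (−1.22 ± 0.23, adjusted p = 0.00114). Its total RNA counts were 1163 and 6888 for WT against 15091 and 6461 for miR-379KO, so WT A stood apart there. The difference between the assays was −2.62 ± 1.30 for Egr1 (unadjusted p = 0.103). Whether culture state at harvest had a part in these total RNA values was not tested.

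Housekeeping complexes gave a scale for these lists. Of 75 cytosolic ribosomal protein genes 34 fell and 0 rose, with a median of −0.60, and with factors from expressed genes 8 fell. Their median after the subtraction was −0.01. Rps13 had 164 and 188 counts against 84 and 65. Of 77 nuclear genes of the respiratory chain 17 fell and 0 rose (median −0.57, and −0.08 after the subtraction). Of 76 mitochondrial ribosomal protein genes, whose median total RNA count of 492 was lower than the 8903 of the cytosolic ones, 0 fell and 1 rose, with a median of −0.16 that turned to 0.07 with factors from expressed genes. Of 33 hnRNP and SR splicing factor genes 11 fell with a median of −0.58, and of 20 aminoacyl-tRNA synthetase genes 7 fell with a median of −0.60. Of these splicing and synthetase genes 0 fell with factors from expressed genes. Of 35 expressed proteasome genes 4 fell (median −0.35), close to the 11.6% of all expressed genes, of 32 cell cycle genes 6 fell and 1 rose (−0.46), and of 22 redox genes 5 fell and 1 rose (−0.36). Of 14 expressed genes of the silencing complex and of microRNA processing 0 were called. Ago2 had 371 and 455 counts against 262 and 223 (−0.57 ± 0.24, adjusted p = 0.0839).

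**Figure D4:**
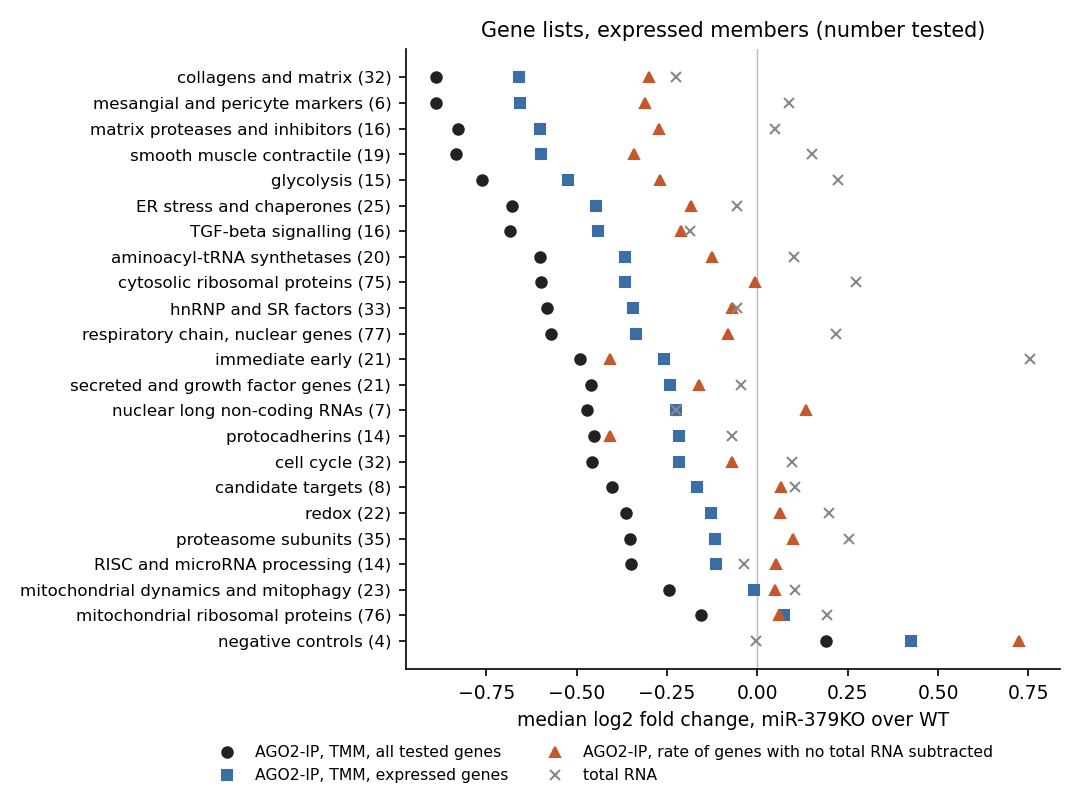
Median log2 fold change (miR-379KO over WT) of the expressed members of each list with 4 or more tested, for AGO2-IP under 2 scalings and after subtraction, and for total RNA. After subtraction the matrix, protease, contractile, glycolysis, immediate early, protocadherin and mesangial marker lists have medians of −0.27 or lower, and cytosolic ribosomal proteins move from −0.60 to −0.01.

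In the region of miR-379 itself, long non-coding RNAs of the maternal chromosome fell. Rian (chromosome 12) had 544 and 428 counts for WT against 227 and 232 for miR-379KO (−0.85 ± 0.23, adjusted p = 0.0108), and its total RNA changed by 0.24 ± 0.30. Meg3 had 941 and 671 against 436 and 342 (−0.82 ± 0.25, adjusted p = 0.0184). Mirg, which lies downstream and had low total RNA, had 39 and 28 against 17 and 13 and did not pass (−0.93, adjusted p = 0.0524), though it did with RLE factors (−0.97). With factors from expressed genes Rian passed (adjusted p = 0.0343) and Meg3 did not (0.0526). Rian and Meg3 both passed with DESeq2 (adjusted p = 0.0232 and 0.0246) and with the GC and length offset (0.00109 and 0.0143). Neither passed with all 8 libraries in one fit (adjusted p = 0.0501 and 0.171). The fit on expressed genes alone (0.0977 and 0.127) and a mean of 50 counts (0.172 and 0.213) called neither. Dlk1, expressed from the paternal chromosome, had 16 and 8 counts against 19 and 26 (1.13 ± 0.42, adjusted p = 0.0461). Its call depended on the setting. Dlk1 passed with factors from expressed genes (adjusted p = 0.0237) and with the GC and length offset (0.0213). It did not pass with DESeq2 (adjusted p = 0.285) or the replicate block (0.0558). Nor did it pass with all 8 libraries in one fit (0.145) or in the fit on expressed genes alone (0.0766). The 30 microRNA entries of the cluster held 47 and 28 counts for WT against 21 and 22 for miR-379KO, and none was deep enough to be tested.

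The candidate targets were compared with the 4 genes that the study used as negative controls. The study took these 4 because their AGO2-IP enrichment did not differ significantly between genotypes, so a lack of calls among them carries no weight. All 12 were expressed. The candidates were chosen by the study on these AGO2-IP libraries, with Edem3 also known from earlier work, so their directions are not independent evidence. The study's ranking used reads at the predicted site relative to the rest of the 3′-UTR, whereas counts here cover whole genes. Its other evidence, hybrid reads for Fis1, reporter assays for Fis1 and Txn1 and AGO2-IP qPCR, is not examined by gene counts. Of the 8 candidates 2 fell, Txn1 and Slc20a1. Hnrnpc (−0.43, adjusted p = 0.185), Clta (−0.37, adjusted p = 0.288) and Ap3s1 (0.03, adjusted p = 0.946) did not pass. Txn1, thioredoxin, with the 6-base site already shown, had 131 and 170 counts for WT against 84 and 56 for miR-379KO (−0.91 ± 0.25, adjusted p = 0.0118). Slc20a1, a phosphate transporter without a 6-base match, had 299 and 192 against 150 and 113 (−0.67 ± 0.23, adjusted p = 0.0335). With factors from expressed genes Txn1 passed (−0.67, adjusted p = 0.0451) and Slc20a1 did not (0.141), and DESeq2 called neither. Txn1 passed with the GC and length offset (0.00727) and the replicate block (0.0140). It did not pass in the fit on expressed genes alone (0.122) or at a mean of 50 counts (0.218). With a library left out, Txn1 ran from −1.27 (without WT A) to −0.63 (without WT B), and Slc20a1 from −0.91 (without WT B) to −0.53 (without WT A).

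Edem3, a mannosidase-like protein of ER-associated degradation, had 236 and 203 counts against 175 and 128 (−0.32 ± 0.22, adjusted p = 0.290). With the GC and length offset Edem3 passed (−0.83, adjusted p = 0.0115), as did Hnrnpc (−1.19, adjusted p = 0.00219), and 4 of the 8 candidates fell there. Among all expressed genes 15.3% fell and 1.25% rose with that offset, and the median was −0.29. Fis1, the mitochondrial fission factor, had 38 and 36 against 39 and 22, and its genotypes overlapped (−0.07 ± 0.32, adjusted p = 0.898, turning to 0.16 with factors from expressed genes). Vegfb had 33 and 7 counts against 9 and 10, too few and too far apart to place (−0.82 ± 0.55). The controls Hmgb1, Tcea1, Snrpe and Rab14 had log2 fold changes of 0.27, 0.23, 0.15 and 0.06 (SE between 0.22 and 0.31), of which 0 passed, and all 4 turned negative with the GC and length offset (−0.36, −0.50, −0.08 and −0.51). Exon GC content had a median of 42.2% in the controls and 47.6% in the candidates, and with the GC and length offset the control median turned from 0.19 to −0.43 beside −0.73 in the candidates. Whether GC content separates the lists was not tested.

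**Figure D5:**
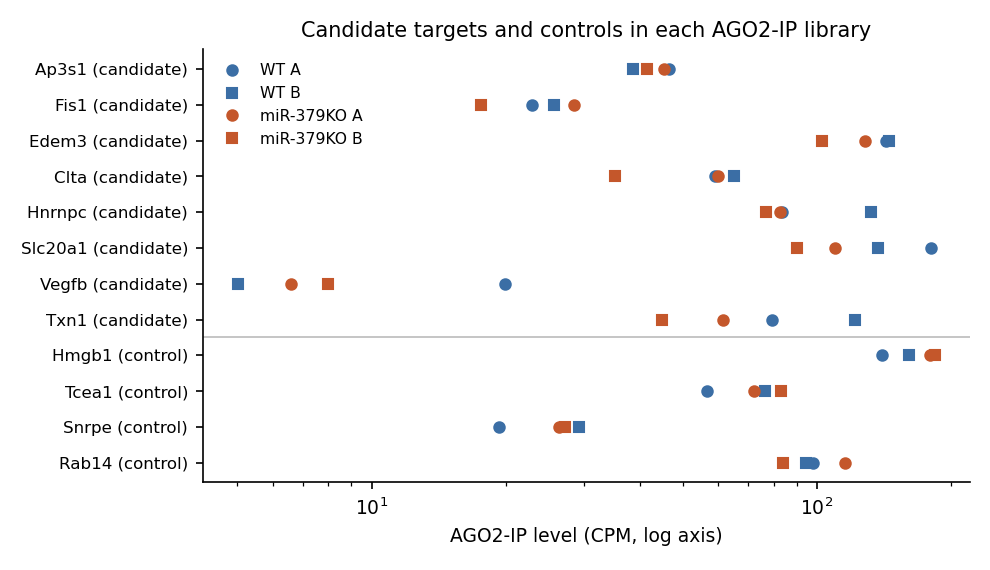
AGO2-IP level (CPM, log axis) of the 8 candidate targets (above the line) and the 4 negative controls (below it) in each library. For Txn1, Slc20a1 and Edem3, of which Edem3 was not called, both miR-379KO points lie below both WT points. For Fis1, Clta, Ap3s1 and Vegfb the genotypes overlap.

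Expressed genes with a seed match in the 3′-UTR were then described as a whole. GTCTACC, the complement of bases 2 to 8, was found on the sense strand of 450 of 9557 3′-UTRs (4.71%). Of the 450 genes 41 fell (9.11%) and 22 rose (4.89%), against 11.7% and 2.89% of the genes without it. Their median was −0.18 against −0.24 without the match. The shorter matches gave the same order, with −0.11 for TCTACCA (820 genes) and −0.17 for TCTACC (2379 genes, which include those of the longer matches). Genes with GTCTACC had 3′-UTRs with a median of 2335 bases against 1127 without. In the longest 3′-UTRs (2252 to 15586 bases) the medians were −0.14 with the match (235 genes) and −0.09 without (2154 genes). At 1173 to 2251 bases they were −0.21 (126 genes) and −0.18, and at 516 to 1173 bases −0.44 (69 genes) and −0.29. The shortest 3′-UTRs went the other way, with −0.21 (20 genes) and −0.39. With the GC and length offset the order turned, to −0.32 with GTCTACC and −0.29 without. It did so too for TCTACCA (−0.33 and −0.29) and TCTACC (−0.31 and −0.28). No direction common to these settings was found for genes with the match.

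The AGO2-IP change was last set against the total RNA change in one fit over all 8 libraries. In total RNA alone 0 of 12316 genes passed in edgeR, and 91 had an unadjusted p under 0.05. In the test of the difference 0 of 18185 genes passed (percent called 0), 2797 had an unadjusted p under 0.05, and the smallest adjusted p was 0.182. DESeq2 called 17 higher and 103 lower in the same test. Cmah differed by 2.40 ± 0.42 (unadjusted p = 1.95e-05, adjusted p = 0.182). The differences of Itga5 (−1.78 ± 0.42), Tgfb1 (−1.40 ± 0.35) and Mgp (−2.32 ± 0.48) did not pass. Txn1 differed by −1.32 ± 0.40 (unadjusted p = 0.00403, adjusted p = 0.228).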

How the data were processed

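AGO2-IP and total RNA libraries of WT and miR-379KO MMC were compared, with 2 replicates per group grouped by their labels. The authors deposited raw counts per gene. Per the labels and the study's methods, reads were aligned to mm10 with TopHat and Bowtie2 (2.1.0.1) and assigned to RefSeq genes with HTSeq (0.6.0), counting the reverse strand at an alignment quality of at least 10. AGO2-IP libraries were made from sonicated, cross-linked lysates, and the total RNA libraries from poly(A) RNA. Polyadenylation therefore bears on which genes count as having no total RNA.

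Special HTSeq rows and 20 rows naming no gene were dropped, and Rn45s and Lars2, which took 80.0 to 89.0% of gene counts, were left out of totals. The depth left, 1115665 to 1874974 counts, limits what can be seen in genes with few counts. Genes were filtered with filterByExpr (minimum count 10) and compared with edgeR's quasi-likelihood test (edgeR 4.0.16, R 4.3.3, TMM factors, robust, no covariate), with Benjamini-Hochberg adjustment over all 13445 genes and a threshold of 0.05. The biological coefficient of variation was 0.160. Fold changes are given as log2 ± SE. The difference between AGO2-IP and total RNA changes was tested by an interaction term in a fit to the 8 libraries together. Alternatives were DESeq2 1.42.0, the edgeR exact test, other scalings and filters, the replicate letter as a block, an offset for GC content and length, and the omission of each library. Shares of counts were compared with exact two-sided permutation tests and carry Wilson intervals. GC content, masked repeats, 3′-UTRs and sequences came from RefSeq for GRCm38.p6, whose coordinates match mm10; 320 of 24639 rows were not matched. The scripts were tested on simulated data.

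Named genes were the members of the gene lists, the 12 largest rises and falls among called expressed genes whose mean AGO2-IP count reached 50 and whose genotypes did not overlap, the 10 largest rises and up to 5 falls among genes with no total RNA by the same criteria from 30 counts, the 6 highest expressed genes, and the genes next to the limit of 100 counts. Members and lists were chosen with earlier results of these data known. A few named genes are not reported here.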

Additional observations from a re-analysis of the deposited data

Results flagged for a closer look

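Reads placed uniquely but assigned to no gene on the counted strand enter no comparison above. They made up 73.4% of uniquely placed reads in miR-379KO A and 76.4% in miR-379KO B, above the 46.6% and 49.7% of the WT libraries. Their part in the differences between genotypes was not tested.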

How the results depend on the processing

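Over all genes the 3920 calls became 799 with DESeq2, 273 at a mean of at least 50 counts, 1452 in a fit over all 8 libraries, and 1007 to 3363 with a library left out (1007 without miR-379KO B, 2350 without WT B). For expressed genes the 1415 calls became 325 (44 higher, 281 lower) with DESeq2, 2430 (162 and 2268) without a filter, 196 (157 and 39) at a mean of 50, 386 (98 and 288) over 8 libraries, 332 (244 and 88) in a fit on expressed genes alone, and 220 to 1559 with a library left out (220 without miR-379KO B, 940 without WT B). The GC and length offset gave 121 and 1480. For genes with no total RNA the 834 calls became 142, 5 and 422 under the first 3 settings, 513 with the GC and length offset, and 255 to 571 with a library left out (549 without WT A, 467 without WT B and 255 without miR-379KO B). The 0 differences between assays became 15 without a filter, 1 at a mean of 50 and 120 with DESeq2, and stayed at 0 with each AGO2-IP library left out. The causes were not tested.

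The labels do not say that a letter marks a shared animal or batch, and same-letter libraries did not deviate together (correlation −0.04 over 13445 genes). With the letter as a replicate block, 284 expressed genes rose and 918 fell, the differences between assays became 32, and with the offset added the block gave 430 calls in genes with no total RNA.

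Of 2284 values for single genes and medians, 1720 kept direction and call, 499 lost the call, 27 gained it (Edem3, Hnrnpc and Tgfbr1 with the GC and length offset among them) and 32 changed sign. Ap3s1 turned negative with RLE (−0.012), DESeq2 (−0.010), no filter (−0.17), the offset (−0.62) and the block and offset (−0.61), and ran from −0.15 (without WT B) to 0.094 with a library left out. Fis1 turned positive with factors from expressed genes (0.16), the fit on them alone (0.16), the offset (0.34) and block and offset (0.33), and ran from −0.55 to 0.22 (without miR-379KO B). Rab14 turned negative without a filter (−0.14), with the offset (−0.51) and block and offset (−0.53), and ran from −0.28 (without miR-379KO A) to 0.26. Snrpe did so without a filter (−0.052), with the offset (−0.075) and block and offset (−0.070), and ran from −0.21 (without WT A) to 0.41. Tcea1 did so with the offset (−0.50) and block and offset (−0.50), and ran from −0.057 (without WT A) to 0.39. Hmgb1 (−0.36 in both) and Ereg (−0.029 and −0.027) did so with the offset and with block and offset. Vegfb ran from −1.50 to 0.45 (without WT A), and Edem3 was 0.031 at a mean of 50 counts. With the rate in genes with no total RNA subtracted, an alternative chosen after seeing the data, the median turned to −0.067 at 100 to 300 counts and 0.022 at 1000 to 3000.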
